A study of Mus musculus with 18 samples.

Results

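The data described here are the levels of 5 long non-coding RNA genes, Malat1, Neat1, Meg3, Gas5 and Snhg1, in mouse MII oocytes, which are ovulated eggs waiting for fertilisation at the second meiotic metaphase. They are 5 of the 55471 gene IDs in the oocyte tables, and all 5 were found by symbol. Malat1 was selected on its level: it was picked because it was higher in the libraries labelled Isca2 knockout (KO) and in wild-type (WT) replicate 3 than in WT replicates 1 and 2. Its values are therefore a description and carry no test. The other 4 genes were named as nuclear or small nucleolar RNA (snoRNA) host transcripts, with earlier results of these data known.

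The study concerns ISCA2, which helps to build iron-sulfur clusters in mitochondria, and has 18 mouse samples of oocytes, sperm and blastocysts. Messenger RNA was sequenced from 3 oocyte libraries of genotype wild type and 3 of genotype Isca2 -/-, with 17792157 to 30240350 expected counts per library. The labels give no strain, age, allele design or number of oocytes per library, nor whether the replicates are different animals. A p-value here therefore sets a difference against the scatter of these libraries, which may be technical. The written collection protocol, repeated for every sample, has Isca2+/- females given gonadotropins and mated with Isca2+/- males, and its library steps describe blastocysts. Small RNA was sequenced from sperm of both genotypes (2 libraries each), and the methylation samples of blastocysts are not analysed here.

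The expected counts of Isca2 itself were 14, 11 and 152 in WT and 53, 56 and 120 in KO-labelled libraries, so it was not lower under that label and every direction below is between libraries as labelled. WT replicate 3 stood apart, with Pearson correlations of 0.881 to 0.903 with the other libraries against 0.93 to 0.96 among those 5. Its 14 macrophage and leukocyte markers summed to 1167 CPM (counts scaled to the library total and edgeR's TMM factor), against 14.2 to 21.4 CPM elsewhere. The summed level of the 15 oocyte markers, led by Dppa3 and Gdf9, was between 19860 and 21820 CPM in all 6 libraries, with 14 or 15 of them at 1 CPM or more in each. Results that rest on this library are given with and without it.

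Malat1 RNA stays in the nucleus, where it gathers in nuclear speckles, bodies rich in splicing factors, and RNase P cuts its 3' end to release a small transfer RNA-like RNA. Neat1 RNA is the scaffold of paraspeckles, nuclear bodies that hold RNA-binding proteins. Meg3 is an imprinted RNA expressed from the maternal allele of the Dlk1-Dio3 region. Gas5 and Snhg1 are spliced hosts: box C/D snoRNAs, guides of RNA methylation, are cut from their introns, and the spliced host RNA is exported and degraded by nonsense-mediated decay when translated. Many such hosts begin with a run of pyrimidines, as ribosomal protein messenger RNAs do.

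All coordinates are from RefSeq for GRCm38.p6, and GRCm38 is the build named in the submitters' processing notes for the oocyte tables. Malat1 (ENSMUSG00000092341) lies on chromosome 19 at 5795690 to 5802672 and Neat1 (ENSMUSG00000092274) on the same chromosome at 5824708 to 5845480, with 22035 bases between them. Snhg1 (ENSMUSG00000108414) lies further along chromosome 19 at 8723487 to 8726326. Meg3 (ENSMUSG00000021268) lies on chromosome 12 at 109540996 to 109571729, and Gas5 (ENSMUSG00000053332) on chromosome 1 at 161034601 to 161038539.

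The starts of 4 members are shown because snoRNA hosts are known by their start sequence. Each window runs from 80 bases before the RefSeq start to 50 bases after it, read in the direction of the gene. Capitals mark TATA in the 45 to 15 bases before the start, TGACGTCA (the cyclic AMP response element) anywhere, and a run of 3 or more C or T from the start base. TATA and TGACGTCA read the same on both strands, and the pyrimidine run was read on the gene's strand only.
Malat1, chr19:5802623-5802752, minus strand: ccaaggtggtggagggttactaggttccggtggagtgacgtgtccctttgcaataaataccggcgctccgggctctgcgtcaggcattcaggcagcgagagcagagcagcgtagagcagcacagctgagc
Meg3, chr12:109540916-109541045, plus strand: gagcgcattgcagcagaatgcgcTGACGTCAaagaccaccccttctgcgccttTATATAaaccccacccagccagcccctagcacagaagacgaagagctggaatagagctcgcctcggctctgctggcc
Gas5, chr1:161035086-161035215, plus strand: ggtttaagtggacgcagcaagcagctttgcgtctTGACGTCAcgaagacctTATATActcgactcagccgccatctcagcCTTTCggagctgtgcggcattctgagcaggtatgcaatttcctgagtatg
Snhg1, chr19:8723407-8723536, plus strand: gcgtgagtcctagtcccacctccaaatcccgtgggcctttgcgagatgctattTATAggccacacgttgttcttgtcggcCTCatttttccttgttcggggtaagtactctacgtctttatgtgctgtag

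The windows shown for Meg3 and Gas5 each had both elements. In Meg3, TATA began 27 bases and TGACGTCA 57 bases before the start, and in Gas5 they began 29 and 46 bases before it. Snhg1 had TATA 27 bases before the start and a pyrimidine run of 3 bases, whereas the run in Gas5 was 5 bases. The Malat1 window had neither TATA nor TGACGTCA by this search. Among 32851 RefSeq promoters of the same table, 6.72% had TATA in that interval, 1.79% had TGACGTCA within 300 bases, and 2.51% began with C followed by at least 4 C or T. Each match is a match of letters, and none was tested for binding. Gas5 and Meg3 each have another listed start in that table, in which the search found no TATA or TGACGTCA and a pyrimidine run of 0 bases. For these genes the start with a match is the one shown, so the elements were part of that choice.

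Malat1 was at a similar level in the 3 libraries labelled KO and uneven in the 3 WT libraries. It had 57.2, 17.2 and 826 CPM in WT replicates 1, 2 and 3. It had 185, 239 and 180 CPM in KO-labelled libraries. WT replicate 3 was highest by 3.45-fold, the libraries labelled KO lay within 1.33-fold of each other, and WT replicates 1 and 2 were lowest and differed by 3.33-fold. The groups of 3 therefore overlapped, and without WT replicate 3 the lowest library labelled KO was 3.14-fold above the highest remaining WT library. This order is the one by which the gene was picked.

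The size and the sign of the Malat1 difference changed with WT replicate 3, with the scale of averaging and with a replicate block. Means were 300.1 ± 456 CPM (SD, n = 3) in WT and 201 ± 33.0 CPM (SD, n = 3) in KO-labelled libraries, a fitted log2 fold change of -0.58 (SE 1.17, edgeR). Without WT replicate 3 the WT mean was 37.2 ± 28.3 CPM (SD, n = 2), the mean in KO-labelled libraries was 5.41-fold above it, and the log2 fold change was 2.43 (SE 0.41). With all 6 libraries kept, the log2 fold change was 1.01 with limma-voom, 1.36 and 1.38 on log2 of TPM plus 1 and plus 0.1, and 1.27 in edgeR with the replicate number as a block. No p is given for any of these values, since the gene was chosen on this contrast.

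**Figure D1:**
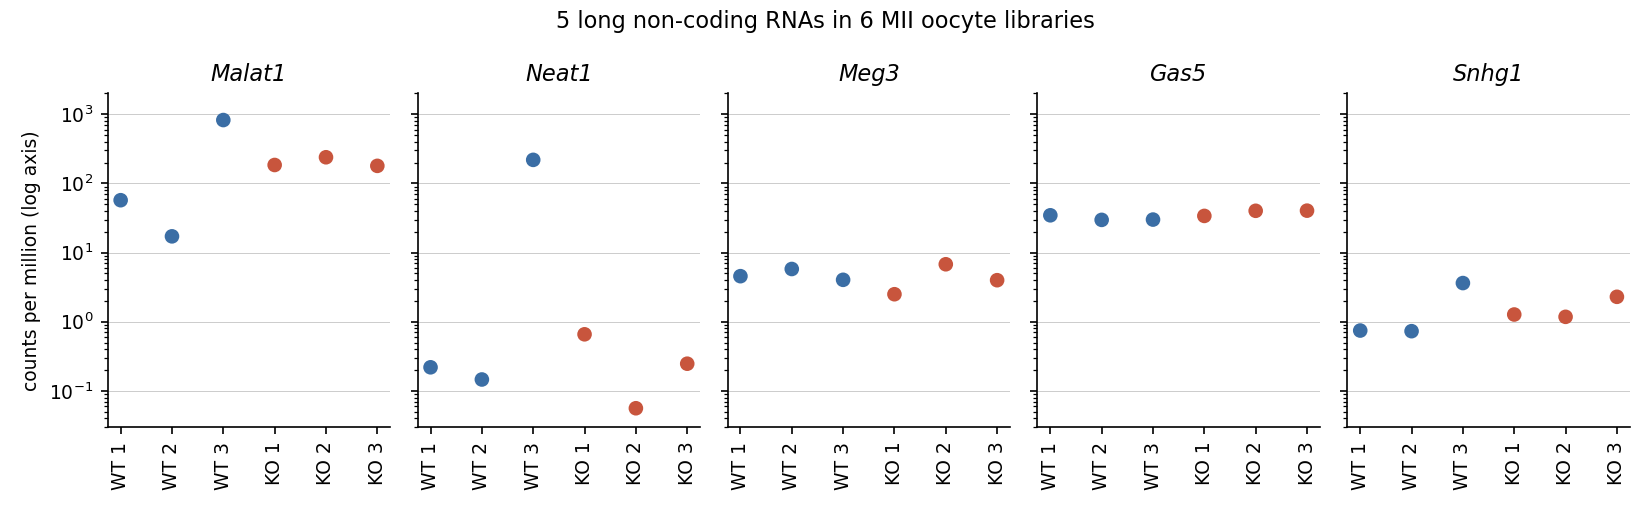
CPM (log axis) of the 5 genes in each oocyte library, 1 point per library, WT in blue and libraries labelled KO in red. Malat1 and Neat1 peak in WT replicate 3 (826 and 219 CPM), Snhg1 does so at a lower level (3.62 CPM), and Meg3 and Gas5 do not.

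Part of the Malat1 signal is shared with a second gene row. The expected counts of Malat1 were 1305.5, 353.02 and 23950.06 in WT replicates 1, 2 and 3 and 4219.83, 4271.51 and 5095.38 in KO-labelled libraries, none of them whole. Those of Gm37376 (ENSMUSG00000102349), a row of a single 453-nucleotide transcript, were 810.5, 246.98, 9924.94, 2729.17, 2701.49 and 3033.62 in the same order. The sums of the rows were whole to within 0.01 counts in 6 of 6 libraries, at 2116, 600.0, 33875, 6949, 6973 and 8129. RSEM, which divides reads that match several transcripts, thus divided the same reads between these rows. Gm37376 was looked at after the values were seen.

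The division differed between libraries by less than the level did. Malat1 received 61.7%, 58.8% and 70.7% of the summed count in WT replicates 1, 2 and 3 and 60.7%, 61.3% and 62.7% in KO-labelled libraries, highest where the level was highest. Summed over both rows, the level was 92.7, 29.2 and 1168 CPM in WT and 304.5, 390.4 and 286.6 CPM in KO-labelled libraries. The order of the 6 libraries was that of Malat1 alone, with WT replicate 3 at 3.57 times the KO mean and the KO mean at 5.37 times that of WT replicates 1 and 2. The log2 ratio of the summed means was -0.39 over 6 libraries and 2.42 without WT replicate 3.

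The length that RSEM gave Malat1 was far shorter than the annotated RNA. RefSeq gives 6983 bases, while the abundance-weighted length over the 4 transcripts in the tables was 903, 986 and 1043 nucleotides in WT and 794, 799 and 828 nucleotides in KO-labelled libraries. How often the lengths of other genes differ in this way was not examined. The lengths also depend on how RSEM divided the reads. The deposited TPM values, which are scaled by transcript length and depth, were 113, 28.2 and 1454 in WT and 420.2, 539.6 and 363 in KO-labelled libraries. Malat1 thereby ranked 1353, 3419 and 85 among all genes in WT replicates 1, 2 and 3, and 368, 282 and 419 in KO-labelled libraries. With the RefSeq length in place of the weighted one, its TPM would be 11.03, 3.11 and 168 in WT and 34.6, 44.8 and 30.8 in KO-labelled libraries, so its rank by TPM depends on which transcripts received the reads.

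**Figure D2:**
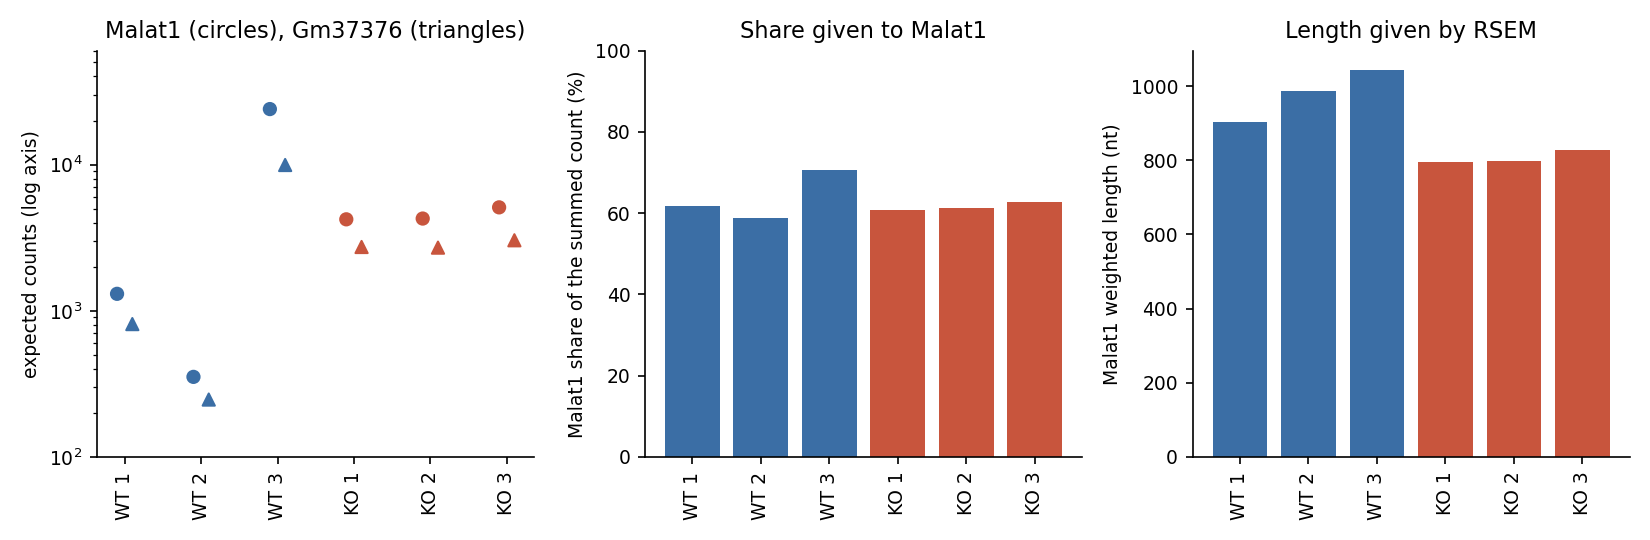
Expected counts of Malat1 and Gm37376 (left, log axis), the Malat1 share of their sum in percent (middle) and the weighted Malat1 length in nucleotides (right) for each oocyte library, WT in blue and libraries labelled KO in red. The share is highest in WT replicate 3 (70.7%), and the lengths are 794 to 828 in KO-labelled libraries and 903 to 1043 in WT.

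Markers of other cell types differed between the libraries, and their levels are given beside those of Malat1. In bulk RNA such as this, fewer cells of a type and less RNA per cell cannot be told apart. Of 14 macrophage and leukocyte markers, 12 were at 1 CPM or more in WT replicate 3 and 3 in each other library. Adgre1, the gene of the macrophage surface antigen F4/80, had 289 CPM in WT replicate 3 and 0.0973 to 0.458 CPM in 4 of the others, with no count in KO replicate 2. Laptm5, a lysosomal gene of leukocytes, had 195 CPM there and 6.18 to 13.2 CPM elsewhere. The highest Malat1 level thus stood in the library with the highest macrophage marker sum. Outside WT replicate 3 that sum was 21.4 and 14.2 CPM in WT and 21.4, 15.1 and 19.2 CPM in KO-labelled libraries, where Malat1 differed 5.41-fold in the mean. The part of those markers in the Malat1 result was not tested.

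Granulosa and cumulus cells surround the oocyte before and after ovulation, and their 18 markers summed to 120, 92.5 and 127 CPM in WT and to 146, 281 and 339 CPM in KO-labelled libraries. Of these markers 8, 4 and 8 were at 1 CPM or more in WT replicates 1, 2 and 3, and 9, 11 and 11 in KO-labelled libraries, while 7, 11 and 4 had no count in the former and 4, 2 and 4 in the latter. Cyp19a1, the aromatase gene, had 63.7, 64.7 and 51.2 CPM in WT and 60.3, 58.4 and 52.0 CPM in KO-labelled libraries. Gja1, which encodes the gap junction protein connexin 43, had 9.86, 0.389 and 0.103 CPM in WT and 37.7, 112 and 125 CPM in KO-labelled libraries. The marker sum was thus higher in every library labelled KO than in any WT library, although its most abundant gene was level, and in WT replicate 3, where Malat1 was highest, it was below every KO-labelled library. Outside WT replicate 3, Malat1 and this marker sum were each higher in every library labelled KO than in either WT library. For Malat1 this is the order by which it was picked, so the likeness of the 2 orders is no support for a link. The 12 markers tested had a median log2 fold change of 2.49, beside -0.04 over all genes, and 0 were called. Without WT replicate 3 the median was 2.86, beside 0.01 over all genes. There 1 of the 12 was called higher, beside 0.574% of all genes. In 5 of the 12 every library labelled KO was above every WT library, an order that 6.48% of all genes had. The part of these markers in the Malat1 values was not tested. The 5 globin and heme markers of red cells, Alas2 and Hbb-bs among them, summed to at most 1.16 CPM.

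**Figure D3:**
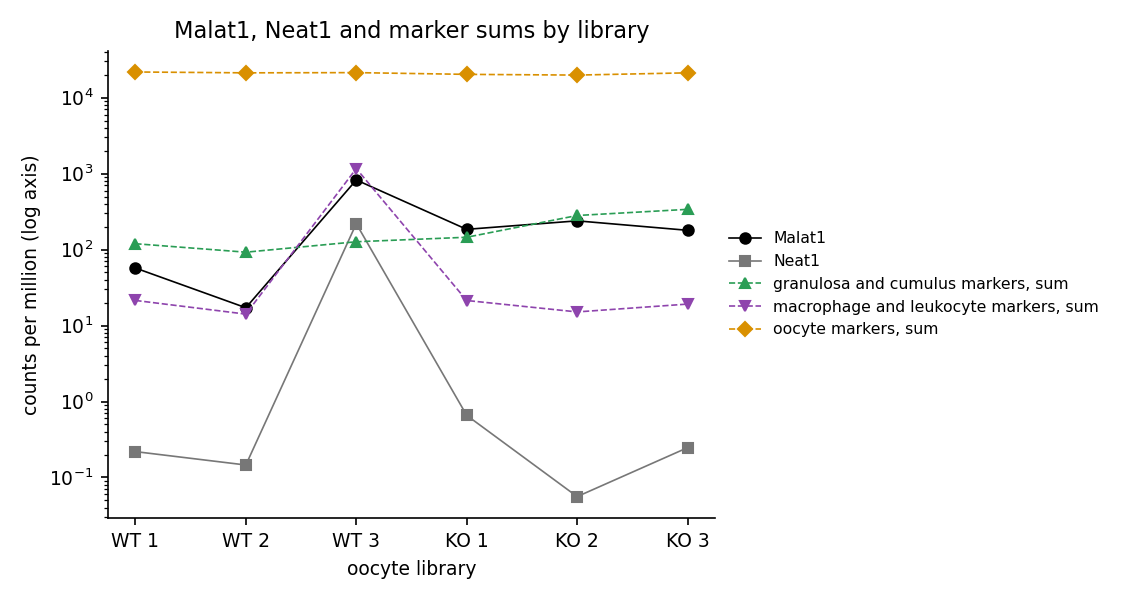
Malat1, Neat1 and the summed levels of 3 marker lists in CPM (log axis) for each oocyte library. Malat1, Neat1 and the macrophage sum peak in WT replicate 3, the granulosa sum is highest in KO replicates 2 and 3 (281 and 339 CPM), and the oocyte sum is level.

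The genes whose levels across the 6 libraries were most like those of Malat1 were Esd, Gm37376, Yme1l1, Rpl7 and Rpl26, with Pearson's r of 0.994 to 0.997 on log2 CPM among 8788 genes. These are descriptions over 6 libraries that share depth, and the highest of so many coefficients are high by selection. Gm37376 shares reads with Malat1, so its likeness is not a separate match. Rpl7, a ribosomal protein gene, had 5.74, 2.09 and 104 CPM in WT and 17.7, 28.7 and 25.4 CPM in KO-labelled libraries. Esd, which encodes an esterase, had 3.46, 1.31 and 29.0 CPM in WT and 7.76, 11.8 and 9.24 CPM in KO-labelled libraries. Each of these shared with Malat1 its highest value in WT replicate 3 and its lowest in WT replicate 2.

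Neat1 was abundant in 1 library only. It had 5 and 3 counts in WT replicates 1 and 2, 6359 in WT replicate 3, and 15, 1 and 7 in KO-labelled libraries. In CPM that was 0.219, 0.146 and 219 in WT and 0.657, 0.056 and 0.247 in KO-labelled libraries. WT replicate 3 was 334-fold above the next library, and the other 5 were within 15 counts of 0 and overlapped between the labels.

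Neat1 did not pass the count filter, which needs counts in several libraries, and so has no test in the 6 libraries. Where a looser filter of at least 1 count over all libraries kept it, edgeR gave a log2 fold change of -7.76 (SE 2.45, adjusted p = 0.715), a value that rests on WT replicate 3. The RSEM length was 4968 nucleotides in WT replicate 3, between the 3004 and 20771 nucleotides that the low-count libraries gave. The short Neat1 RNA is the polyadenylated form, and the long one builds the paraspeckle. In TPM it was 63.9 in WT replicate 3 and at most 0.06 elsewhere.

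Neat1 and Malat1 stand side by side, yet only WT replicate 3 was high for both. In the libraries labelled KO, Malat1 was at 180 to 239 CPM while Neat1 was at 0.056 to 0.657 CPM. The nearest coding gene on the Neat1 side, Frmd8, 5493 bases away, had 6.35, 7.00 and 15.6 CPM in WT and 7.14, 6.72 and 4.76 CPM in KO-labelled libraries (log2 fold change -0.64, SE 0.41, adjusted p = 0.791, edgeR). Slc25a45, 32320 bases from Neat1, was counted in WT replicate 3 alone, at 1.97 CPM. Frmd8 was thus highest in WT replicate 3, with -0.11 (SE 0.31) when that library was left out. These neighbours, both within 50000 bases, were chosen after their values were seen.

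Meg3 was low and did not differ between the labels beyond the spread of the libraries. It had 104, 119 and 117 counts in WT and 57, 121 and 113 in KO-labelled libraries. In CPM these were 4.56, 5.79 and 4.04 in WT and 2.50, 6.77 and 3.98 in KO-labelled libraries. The highest and the lowest value were both under the KO label, 2.71-fold apart, and the groups overlapped. Means were 4.79 ± 0.90 and 4.42 ± 2.17 CPM (SD, n = 3 each), a log2 fold change of -0.12 (SE 0.43, adjusted p = 0.967, edgeR), and 2 SE to either side span -0.97 to 0.74. Leaving out WT replicate 3 gave -0.23 (SE 0.44, adjusted p = 0.910, edgeR). WT replicate 3 was inside the range of the other libraries for this gene. Without KO replicate 1 it was 0.17, and without KO replicate 2 it was -0.56.

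Meg3 was nearly the only transcript of the Dlk1-Dio3 region with counts. Rian, the next RNA of the maternal allele and a snoRNA host, had 0.394, 0.0973 and 1.07 CPM in WT and 0.219, 1.06 and 0.705 CPM in KO-labelled libraries (log2 fold change 0.32, SE 0.97, adjusted p = 0.956, edgeR). Mirg, a host of microRNAs, was counted only in KO replicate 3, at 0.212 CPM. Of the genes expressed from the paternal allele, Dlk1, a membrane ligand of the Notch family, was counted only in WT replicate 1, at 0.131 CPM, and Rtl1 and Dio3 had no count. Of the 6 genes listed for the region, Meg3 and Rian passed the count filter and 0 were called, and Rian overlapped between the labels.

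Meg3 holds 2 microRNA genes by the RefSeq table, Mir770 and Mir1906-1, and both were at 0 in the oocyte tables, which are built from messenger RNA. The products of Mir770 are shown because sperm small RNA could hold them, with the seed (bases 2 to 8) in capitals.
mmu-miR-770-5p: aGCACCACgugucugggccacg
mmu-miR-770-3p: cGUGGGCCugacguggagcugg
No read matched either in the 4 sperm libraries. With 205993 and 703036 reads in the WT and 703133 and 746812 in KO-labelled libraries, a count of 0 allows a share of up to 0.00146%, 0.000427%, 0.000427% and 0.000402% (3 reads, counting error only).

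The profiles most like that of Meg3 were those of Syde1, Sec24d and Tmem47 (Pearson's r of 0.967, 0.945 and 0.942 over 6 libraries). Tmem47, a membrane protein gene, had 32.8, 36.3 and 30.1 CPM in WT and 25.5, 46.4 and 33.6 CPM in KO-labelled libraries. Like Meg3 it was highest in KO replicate 2 and lowest in KO replicate 1.

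Gas5 was the steadiest of the 5 genes and the most abundant of the hosts. It had 34.6, 29.7 and 30.0 CPM in WT and 33.9, 40.2 and 40.4 CPM in KO-labelled libraries. KO replicates 2 and 3 were above every WT library, while KO replicate 1 was just under WT replicate 1, so the groups overlapped. Means were 31.4 ± 2.75 and 38.2 ± 3.69 CPM (SD, n = 3 each), a log2 fold change of 0.28 (SE 0.15, adjusted p = 0.767, edgeR), with 2 SE spanning -0.02 to 0.58. With WT replicate 3 left out it was 0.25 (SE 0.16, adjusted p = 0.632, edgeR), so that library did not set the value. The difference was positive and did not pass the threshold.

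Per length, Gas5 stood at 163, 130.4 and 139 TPM in WT and 148, 173 and 171 TPM in KO-labelled libraries, with RSEM lengths of 522 to 563 nucleotides. The length was nearly constant, so CPM and TPM gave nearly the same order. Gas5 overlaps the coding gene Zbtb37 by 264 bases, and the sources used here do not say whether the counting used strand, so reads in that stretch cannot be told apart. Zbtb37, a zinc finger gene, had 27.5, 29.5 and 20.7 CPM in WT and 33.95, 30.3 and 31.8 CPM in KO-labelled libraries (log2 fold change 0.31, SE 0.18, adjusted p = 0.787, edgeR). Zbtb37 was thus of the same order as Gas5 and did not pass the test either.

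The profiles most like that of Gas5 were those of Nbea, Zkscan16 and Spint2 (Pearson's r of 0.998, 0.992 and 0.977). Nbea, which encodes the membrane traffic protein neurobeachin, had 25.1, 18.2 and 19.2 CPM in WT and 24.0, 36.2 and 35.0 CPM in KO-labelled libraries. As for Gas5, KO replicates 2 and 3 were highest and WT replicate 1 was close to KO replicate 1.

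Snhg1 was low and, like Malat1, highest in WT replicate 3. It had 17, 15 and 105 counts in WT and 29, 21 and 65 in KO-labelled libraries. In CPM these were 0.745, 0.729 and 3.62 in WT and 1.27, 1.18 and 2.29 in KO-labelled libraries. WT replicate 3 was 1.58-fold above the next library, and the libraries labelled KO lay between it and WT replicates 1 and 2, which were level. Means were 1.70 ± 1.67 and 1.58 ± 0.62 CPM (SD, n = 3 each), a log2 fold change of -0.11 (SE 0.75, adjusted p = 0.987, edgeR), with 2 SE spanning -1.61 to 1.39. Once WT replicate 3 was left out it was 1.10 (SE 0.67, adjusted p = 0.602, edgeR), and every library labelled KO was then above both WT libraries.

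Slc3a2, an amino acid transporter subunit gene 117 bases from Snhg1, had 248, 238 and 239 CPM in WT and 260.2, 259 and 283 CPM in KO-labelled libraries (log2 fold change 0.15, SE 0.10, adjusted p = 0.793, edgeR). Wdr74, a ribosome assembly gene 9468 bases away, had 0.613, 0.973 and 4.69 CPM in WT and 1.71, 3.58 and 1.76 CPM in KO-labelled libraries. Wdr74, like Snhg1, was highest in WT replicate 3 and lowest in WT replicates 1 and 2, and Slc3a2 was not. The profiles most like that of Snhg1 were those of Impdh2, Mef2d and Hnrnph1 (Pearson's r of 0.986, 0.985 and 0.985). Impdh2, an enzyme gene of guanine nucleotide synthesis, had 1.23, 1.12 and 11.5 CPM in WT and 2.37, 3.19 and 5.71 CPM in KO-labelled libraries.

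By the RefSeq table, Gas5 and Snhg1 each hold 8 snoRNA genes. The oocyte tables had 1 of them for each, Snord47 in Gas5 and Snord22 in Snhg1, and both were at 0 in all 6 libraries. The other snoRNA genes of each host had no row, so reads from them were not looked at separately.

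Of the 5 members 4 passed the count filter, and of the 3 with a test, Meg3, Gas5 and Snhg1, 0 passed the adjusted threshold of 0.05. Over all 13680 genes tested, 0.0146% passed in either direction, 2 genes in all, so a count of 0 says little about these 3 genes. Before adjustment 396 genes had a higher and 451 a lower level at p under 0.05, and DESeq2 called 101. Without WT replicate 3, 0.574% of 14122 genes were called higher (81 genes), and again 0 of Meg3, Gas5 and Snhg1. No member had every library labelled KO above every WT library or below every WT library, orders that 6.48% and 5.96% of all genes had. WT replicate 3 was the highest library for Malat1 and Snhg1 among the 4 members that passed the filter, and for 31.6% of all genes. Malat1 was picked in part for that order, and its count is not read against the share.

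The non-coding snoRNA hosts as a class moved little between the labels and unevenly among themselves. Of 21 genes listed, 19 were found in the tables and 13 passed the count filter, of which 0 were called. The median log2 fold change was -0.11, beside -0.04 over all genes, and 6 of 13 were positive, beside 6212 of 13680 genes. WT replicate 3 was the highest library for 7 of the 13, and for 31.6% of all genes. Without that library the median was 0.24, beside 0.01 over all genes, and 10 of 13 were positive, beside 7278 of 14122 genes. Still 0 were called, where 0.574% of all genes were called higher, so that count says little. The sign of the class median was not fixed with 6 libraries either: it was 0.18 with limma-voom, 0.22 with the filter of 1 count over all libraries, 0.04 and 0.08 on log2 of TPM plus 1 and plus 0.1, and 0.15 with the replicate number as a block. It was also positive without KO replicate 2 (0.13) and without KO replicate 3 (0.02).

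After Gas5, the hosts with the highest deposited TPM were Snhg6, Snhg10 and Snhg18. Snhg6 had 5.78, 3.84 and 6.55 CPM in WT and 5.96, 4.20 and 2.89 CPM in KO-labelled libraries (log2 fold change -0.31, SE 0.39). Snhg10 had 2.98, 3.74 and 2.17 CPM in WT and 3.50, 2.91 and 4.65 CPM in KO-labelled libraries (log2 fold change 0.32, SE 0.38). Both overlapped between the labels. Snhg18 had 9.73, 7.34 and 13.0 CPM in WT and 7.84, 7.11 and 7.83 CPM in KO-labelled libraries (log2 fold change -0.40, SE 0.29, adjusted p = 0.801, edgeR), with WT replicate 3 highest and a value of -0.17 (SE 0.27) when it was left out. Snhg5 and Snhg8 overlapped as well, with log2 fold changes of 0.01 (SE 0.50) and -0.64 (SE 0.86).

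Snhg3 and Snhg20 had the largest positive values of the class. Snhg3 had 0.0438, 0 and 0.793 CPM in WT and 0.57, 1.74 and 0.67 CPM in KO-labelled libraries, a log2 fold change of 1.75 (SE 1.32, adjusted p = 0.807, edgeR). Snhg20 had 0.0876, 0 and 0.414 CPM in WT and 0.35, 0.896 and 0.67 CPM in KO-labelled libraries, a log2 fold change of 1.84 (SE 1.13, adjusted p = 0.788, edgeR). For both, WT replicate 3 was within the KO-labelled range and WT replicates 1 and 2 were near or at 0. Without WT replicate 3 the Snhg3 value was 5.13 (SE 1.43, adjusted p = 0.173, edgeR) and the Snhg20 value 3.66 (SE 1.44, adjusted p = 0.355, edgeR). These fitted values rest on at most 2 counts in WT replicates 1 and 2 and are no measure of the fold.

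Zfas1, a host, and Snhg15 were among those highest in WT replicate 3. Zfas1 had 0.57, 0.0486 and 1.83 CPM in WT and 0.613, 0.952 and 0.705 CPM in KO-labelled libraries, with log2 fold changes of -0.13 (SE 1.02) over 6 libraries and 1.26 (SE 1.10) without WT replicate 3. Snhg15 had 0.657, 0.0973 and 3.0 CPM in WT and 0.57, 1.79 and 0.494 CPM in KO-labelled libraries, with -0.42 (SE 1.11) and 1.3 (SE 1.09). In both, WT replicate 3 was highest and WT replicate 2 lowest, as for Malat1. Epb41l4aos, a host that did not pass the count filter, had at most 0.31 CPM.

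**Figure D4:**
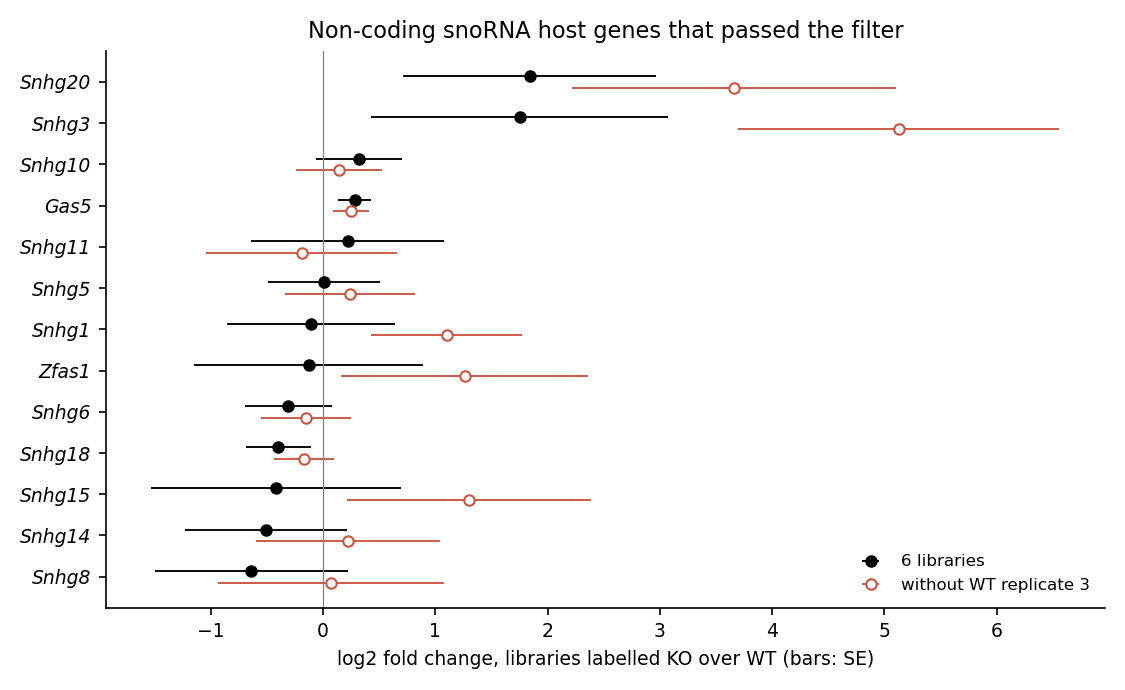
Log2 fold change (libraries labelled KO over WT) of the 13 non-coding snoRNA hosts that passed the count filter, with all 6 libraries (filled) and without WT replicate 3 (open), bars showing 1 SE. Gas5 has the shortest bars and hardly moves (0.28 and 0.25), whereas Snhg1 moves from -0.11 to 1.10 and Snhg3 from 1.75 to 5.13.

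The start of Snhg8 had TATA 30 bases before it and a pyrimidine run of 6 bases, and that of Snhg5 had TATA 23 bases before it. The Snhg18 start had a run of 6 bases and no TATA in the interval. In Snhg15, TGACGTCA began 88 bases before the start, within the 300 bases searched. Hosts with these letters, Gas5, Snhg1, Snhg5, Snhg8, Snhg15 and Snhg18, had log2 fold changes on both sides of 0, from -0.64 to 0.28.

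Coding genes that host snoRNAs had a median log2 fold change of 0.04 (0.07 without WT replicate 3), 6 of 9 positive and 0 called. Ncl, the nucleolin gene and the most abundant of them, had 877, 1018 and 616 CPM in WT and 842, 858 and 757 CPM in KO-labelled libraries (log2 fold change -0.03, SE 0.19). Hspa8, which encodes a constitutive heat shock protein, had 190, 192 and 407 CPM in WT and 193, 219 and 187 CPM in KO-labelled libraries (log2 fold change -0.40, SE 0.30). Eef2, a translation elongation factor gene, had 40.4, 45.5 and 89.1 CPM in WT and 40.5, 46.0 and 45.1 CPM in KO-labelled libraries (log2 fold change -0.41, SE 0.30). Hspa8 and Eef2 were level outside WT replicate 3, with 0.06 (SE 0.11) and 0.03 (SE 0.14) without it.

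The proteins that assemble with snoRNAs, a list that shares Nop56 with the coding hosts, had a median of 0.22, 9 of 13 positive and 0 called, and 3 of the 13 had every library labelled KO above every WT library, an order that 6.48% of all genes had. Dkc1, the pseudouridine synthase of box H/ACA particles, had 305, 325 and 303 CPM in WT and 338, 386 and 396 CPM in KO-labelled libraries (log2 fold change 0.26, SE 0.11, adjusted p = 0.766, edgeR). Ruvbl1, an ATPase of particle assembly, had 14.5, 15.4 and 10.7 CPM in WT and 24.4, 17.4 and 19.5 CPM in KO-labelled libraries (log2 fold change 0.60, SE 0.23, adjusted p = 0.766, edgeR). For both, the groups did not overlap and the difference missed the threshold. Its partner Ruvbl2 was level, with a log2 fold change of -0.01 (SE 0.10). The median without WT replicate 3 was 0.21.

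Paraspeckle proteins, the partners of Neat1, had a median of -0.29, 4 of 13 positive and 0 called. Over all genes 6212 of 13680 were positive. WT replicate 3 was the highest library for 9 of the 13, and for 31.6% of all genes. Pspc1, a core paraspeckle protein gene, had 2.58, 1.80 and 6.66 CPM in WT and 0.876, 2.13 and 1.16 CPM in KO-labelled libraries (log2 fold change -1.41, SE 0.63, adjusted p = 0.766, edgeR). Hnrnpk, the most abundant of them, had 456, 426 and 488 CPM in WT and 470.2, 543 and 559.5 CPM in KO-labelled libraries (log2 fold change 0.20, SE 0.12). Tardbp, which encodes TDP-43, had 119, 129 and 120.1 CPM in WT and 146, 146 and 146 CPM in KO-labelled libraries (log2 fold change 0.25, SE 0.10, adjusted p = 0.766, edgeR). Tardbp did not overlap between the labels and did not pass the threshold. Of the 13 genes, 1 had every library labelled KO above every WT library and 1 had every one below. Over all genes the shares were 6.48% and 5.96%. Without WT replicate 3 the median was -0.05 and Pspc1 stood at -0.67 (SE 0.58).

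Nuclear speckle proteins, the partners of Malat1, had a median of -0.02 (0.07 without WT replicate 3), 6 of 12 positive and 0 called. Srrm2, a scaffold of the speckle, had 223, 221 and 198 CPM in WT and 175, 175 and 175 CPM in KO-labelled libraries (log2 fold change -0.29, SE 0.10, adjusted p = 0.766, edgeR). It lay below every WT library in each library labelled KO, and leaving out WT replicate 3 gave -0.34 (SE 0.10, adjusted p = 0.173, edgeR). Of the 12 genes, 2 had that order and 1 had the opposite one, beside 5.96% and 6.48% of all genes. Srsf7, a splicing factor gene, had 75.3, 89.0 and 87.1 CPM in WT and 89.6, 95.9 and 116 CPM in KO-labelled libraries (log2 fold change 0.26, SE 0.14, adjusted p = 0.767, edgeR). Srrm1, the most abundant of them, had 378, 425 and 248 CPM in WT and 374, 398 and 393 CPM in KO-labelled libraries (log2 fold change 0.15, SE 0.19). WT replicate 3 was the highest library for 5 of the 12, as for Malat1, and for 31.6% of all genes. Srrm1 and Srrm2 were each lower there than in WT replicates 1 and 2.

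Factors of nonsense-mediated decay, which degrades Gas5 and Snhg1 RNA, had a median of -0.13, 3 of 9 positive and 0 called. Upf3b, a link to the exon junction complex and the most abundant of them by TPM, had 64.0, 80.1 and 68.6 CPM in WT and 87.4, 76.2 and 83.6 CPM in KO-labelled libraries (log2 fold change 0.22, SE 0.13, adjusted p = 0.787, edgeR). Its groups overlapped, and without WT replicate 3 the median of the list was -0.14.

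**Figure D5:**
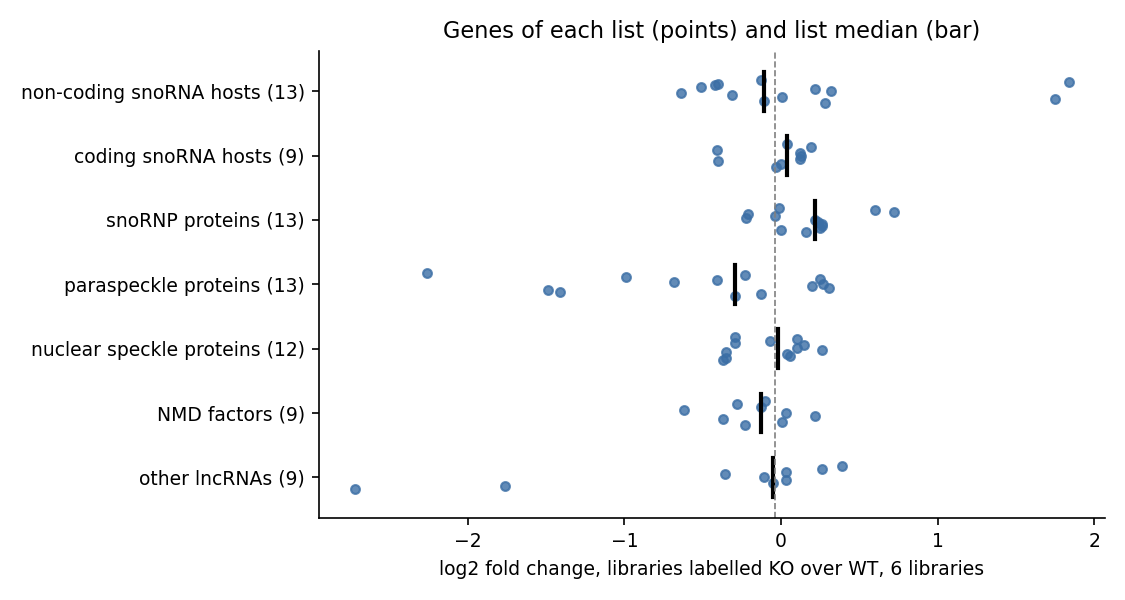
Log2 fold change (libraries labelled KO over WT, 6 libraries) of each tested gene in 7 lists, with the list median as a bar, the number of tested genes in brackets and the median of all genes (-0.04) as a dashed line. Paraspeckle proteins have the lowest median (-0.29) and snoRNA-binding proteins the highest (0.22), and no gene shown passed the adjusted threshold.

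Of 15 other long non-coding RNAs listed, 9 were tested and 0 called, with a median of -0.05 over 6 libraries and 0.58 without WT replicate 3. Tug1, the most abundant by TPM, had 63.5, 73.6 and 52.6 CPM in WT and 47.6, 62.0 and 65.9 CPM in KO-labelled libraries (log2 fold change -0.11, SE 0.18). Xist, the RNA that coats the inactive X chromosome in somatic female cells, had 0.35, 0 and 19.2 CPM in WT and 1.01, 1.12 and 0.846 CPM in KO-labelled libraries (log2 fold change -2.72, SE 1.75, adjusted p = 0.788, edgeR). Pvt1 had 6.75, 6.71 and 8.49 CPM in WT and 7.67, 9.07 and 9.52 CPM in KO-labelled libraries (log2 fold change 0.26, SE 0.25). Xist put the 6 libraries in the same order as Malat1, from WT replicate 3 down to WT replicate 2, and without that library edgeR gave it a log2 fold change of 2.44 (SE 1.23, adjusted p = 0.505). Tug1 and Pvt1 did not share this order. The Xist expected counts were 556.62 in WT replicate 3 and 23.06, 19.66 and 23.82 in KO-labelled libraries, none of them whole. Those of Tsix, also listed, were 341.38, 18.94, 35.34 and 20.18 in the same order. The Xist values therefore depend on how RSEM divided shared reads, and are not a measure of Xist alone.

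Within WT replicates 1 and 2 and the libraries labelled KO, Malat1 and Gas5 had the highest TPM of the members and Neat1 the lowest. Gas5 was above Malat1 in WT replicates 1 and 2 (163 against 113 TPM and 130.4 against 28.2 TPM), and Malat1 was above Gas5 in KO-labelled libraries (420.2 against 148, 539.6 against 173 and 363 against 171 TPM). Meg3 was above Snhg1 in 4 of those 5 libraries, and in KO replicate 1 they stood at 3.89 and 4.07 TPM. In WT replicate 3 the order was Malat1, Gas5, Neat1, Snhg1 and Meg3, at 1454, 139, 63.9, 11.1 and 5.92 TPM. With the RefSeq length Malat1 would fall below Gas5 in all libraries but WT replicate 3.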

How the data were processed

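Per the file headers, the deposited oocyte tables hold RSEM expected counts, TPM, FPKM and abundance-weighted lengths per Ensembl gene. FPKM was not used. The submitters' processing notes name RSEM 1.3.1, STAR 2.6.1c, DESeq2 1.42.1 and Trim Galore 0.4.5, and the build mm10/GRCm38, without saying what each did. Which annotation release was counted, and whether by strand, is not given in the sources used here. The sperm files hold whole read counts per distinct sequence, as deposited by the authors, and a microRNA was matched by its sequence lying in a read or the reverse.

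Of 55471 gene IDs, 55144 had a symbol. Expected counts were rounded and tested with edgeR 4.0.16 in R 4.3.3 (filterByExpr, TMM, quasi-likelihood test, Benjamini-Hochberg adjustment over 13680 genes, threshold 0.05), with genotype as the only term. SE is the log2 fold change divided by the root of F. The fit was tested on simulated data. DESeq2 1.42.0, limma 3.58.1 (voom, and log2 of TPM plus 1 or 0.1), RLE factors, library totals, other filters, the replicate number as a block and leaving out each library were alternatives.

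The members and lists were chosen with earlier results of these data known. Genes were named by a rule: the members, non-coding hosts with a mean TPM of at least 1, the 2 smallest p and the most abundant gene of each other list, the 2 most abundant markers of each marker list, and the 5 (Malat1) or 3 best correlated genes whose mean log2 CPM reached 2. Some genes taken this way are not reported here. Neighbours within 50000 bases and Gm37376 as a partner of Malat1 were taken up after the data were seen. Promoters and coordinates are from RefSeq tables of GRCm38.p6.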

Additional observations from a re-analysis of the deposited data

How the results depend on the processing

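The count of genes called depended on the tool: edgeR called 2 with 6 libraries, DESeq2 101, limma on log2 of TPM plus 1 called 12 and on log2 of TPM plus 0.1 called 13, and leaving out 1 library gave 1 (without KO replicate 1) to 92 (without WT replicate 3). The log2 fold change of Malat1 turned from -0.58 to 1.01 with limma-voom, 1.36 and 1.38 with log2 of TPM plus 1 and plus 0.1, and 1.27 with the replicate number as a block. Leaving out 1 library gave -1.12 (without WT replicate 2) to 2.43 (without WT replicate 3). By construction edgeR compares group means and limma compares mean logs. The value with the replicate block is also from edgeR, so this difference in scale does not apply to it. The log2 fold change of Snhg1 turned from -0.11 to 0.18 with limma-voom, 0.03 and 0.08 on the TPM scales and 0.25 with the replicate block, and leaving out 1 library gave -0.47 (without KO replicate 3) to 1.10 (without WT replicate 3). Leaving out 1 library moved Meg3 between -0.56 (without KO replicate 2) and 0.17 (without KO replicate 1). The cause of the changes between settings was not tested beyond this. Gas5 kept its direction under every alternative run, and its value ranged from 0.19 to 0.36. With the replicate number as a block 2 genes were called, Meg3 stood at -0.21 and Gas5 at 0.28. Deviations of same-numbered libraries correlated at 0.0632, -0.111 and 0.00835, which gave no sign of pairing by number. With so few libraries, 1 of them apart from the rest, this cannot exclude a shared batch. The median of the non-coding hosts ranged from -0.34 (without WT replicate 2) to 0.24 (without WT replicate 3). Library totals in place of TMM took the median of all genes from -0.037 to -0.103. Neat1 passed the filter in 5 alternatives, at -7.34 to -8.35 in log2 with adjusted p of 0.417 to 0.999 (edgeR). Outside WT replicate 3, Neat1 had 1 to 15 counts per library and Snhg1 15 to 65, which limits the precision of both.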
